A study of Mus musculus with 3 samples.

Results

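The aminoacyl-tRNA synthetases were described in lipid A-stimulated mouse macrophages as 40 genes of the 55536 annotated genes in the deposited tables, of which 22028 are protein-coding. The members are the protein-coding genes whose GENCODE M21 symbol is a single letter followed by "ars", with or without a closing 1 or 2, together with Eprs, Farsa, Farsb, Tarsl2, Aimp1 and Aimp2. They comprise 21 cytosolic enzymes or subunits, 17 mitochondrial enzymes, which carry the closing 2, and 2 scaffold proteins, Aimp1 and Aimp2, which are not enzymes. All members are encoded in the nucleus, and the rule uses gene symbols, not measured values.

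The cells were bone marrow-derived macrophages (BMDM), macrophages grown from marrow cells in culture, of C57BL/6J mice with no altered allele named. They had received 100 ng/ml lipid A, the Toll-like receptor 4 ligand of bacterial lipopolysaccharide, for 50 min, and ribosomal RNA-depleted total RNA of their cytosolic fraction was sequenced. There were 3 libraries of this 1 group, with a single donor label between them, and sex and age were not collected. No unstimulated sample was analysed here, so no response to lipid A can be given. The labels do not say whether the libraries came from separate animals or cultures, so p-values refer to the spread between these 3 samples alone, which may be technical.

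Each synthetase joins 1 amino acid to its transfer RNA (tRNA) at the cost of ATP, and several also remove amino acids attached by mistake. Cytosol and mitochondria use separate sets of enzymes, apart from Gars and Kars, whose genes each encode both forms. In the cytosol some of the enzymes are held together with 3 scaffold proteins in the multisynthetase complex. Several members are also known outside translation: Eprs silences inflammatory mRNAs in interferon-treated monocytes, Wars is induced by interferon gamma, Lars senses leucine for mTORC1, and Aimp1 is the precursor of a secreted cytokine.

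The libraries held 33044910, 36769402 and 36522216 expected counts (estimated reads on genes). All 10 macrophage markers examined were at or above 1 TPM in all 3 libraries, with a median of 137 TPM, where TPM, the unit of the deposited tables, is a length-corrected share of all listed RNA. Of 33 markers of other cell types, 2 were at this level, Pf4 at 223 ± 17.8 TPM (SD, n = 3) and Cd4 at 26.7 ± 9.31 TPM, and the median was 0.0333 TPM. Over the 9128 protein-coding genes at or above 1 TPM in all 3 libraries, the median was 10.4, 7.47 and 10.1 TPM in libraries 1, 2 and 3, so TPM values in library 2 ran lower for genes in general. Because these are bulk samples, fewer cells of a type and less RNA per cell cannot be told apart.

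Of the 40 members, 34 were at or above 1 TPM in all 3 libraries, and no cytosolic enzyme was below 1 TPM in any. The members' TPM values summed to 374, 274 and 368 in libraries 1, 2 and 3. Their expected counts made up 0.114% ± 0.00287 (SD, n = 3) of each library. Levels spanned from 35.4 TPM for Nars to 0.167 TPM for Mars2, and 15 cytosolic enzymes had a higher mean than the highest mitochondrial enzyme.

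**Figure D1:**
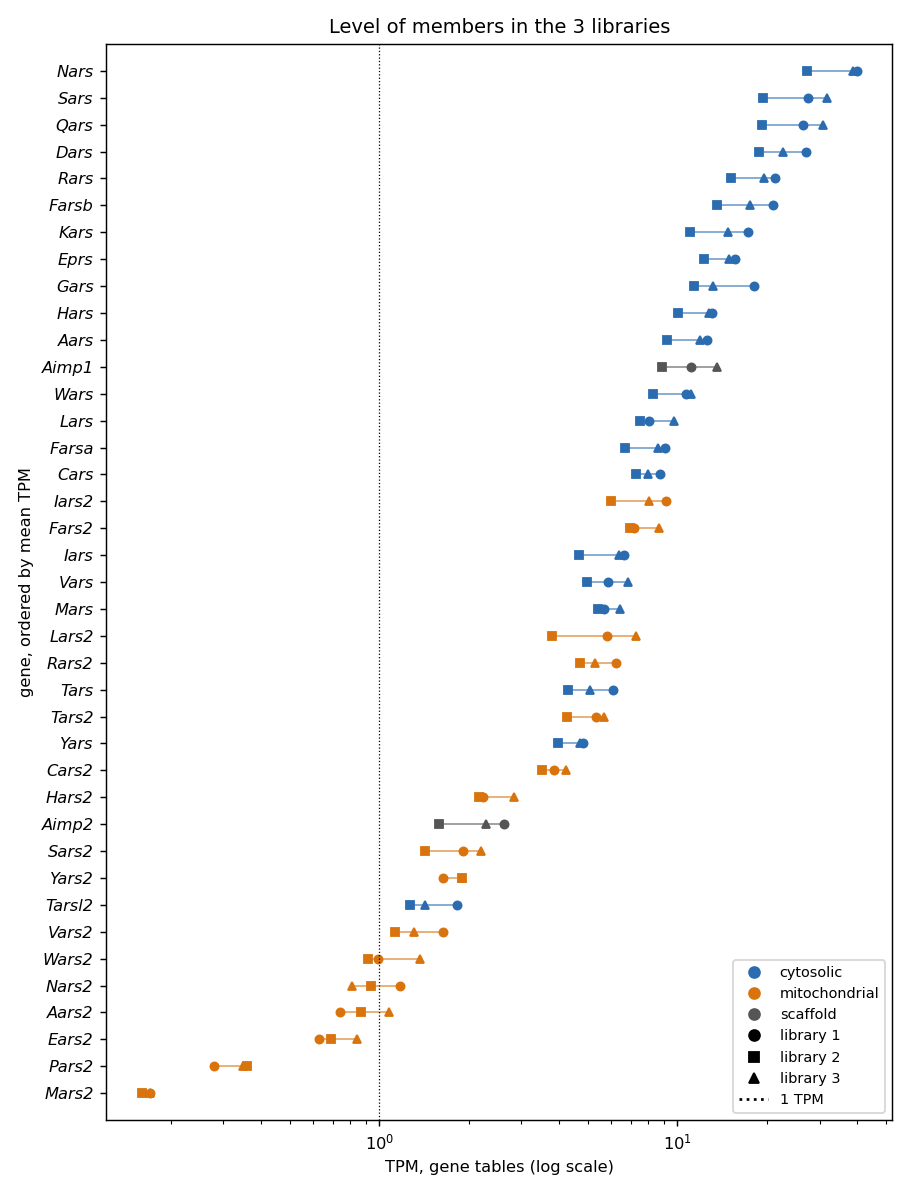
Level of 39 members in the 3 libraries, in TPM on a log axis; genes are ordered by mean TPM, colour marks cytosolic, mitochondrial and scaffold members, the marker shape marks the library, and the dotted line is at 1 TPM. Cytosolic enzymes fill the upper part, down from Nars at 27.3 to 40.0 TPM, and mitochondrial enzymes the lower part, ending with Mars2 at 0.16 to 0.17 TPM.

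Nars, the asparagine enzyme (chr18:64499647-64516652 on the minus strand, mm10), had 39.97, 27.31 and 38.81 TPM. It ranked first among the members in each library, and its mean stood at the 84.3 percentile of the detected protein-coding genes. Sars, the serine enzyme, which also charges the selenocysteine tRNA with serine, had 27.49, 19.35 and 31.80 TPM. Sars, Qars and Dars followed Nars in ranks 2 to 4 in every library. Sars was above Qars and Dars in each library, although their ranges over the libraries overlapped, and Qars and Dars changed places between libraries.

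Eprs, which joins the glutamate and proline enzymes in 1 polypeptide, had 15.57, 12.25 and 14.95 TPM. Its transcript is long: it ranked 8 by TPM and 2 by CPM, counts scaled to library size and not corrected for length. Farsa and Farsb encode the alpha and beta subunits of the cytosolic phenylalanine enzyme, an assembly with equal numbers of each. Farsb had 20.93, 13.60 and 17.54 TPM and Farsa had 9.09, 6.65 and 8.64 TPM, so Farsb was higher in each library. Part of the Farsb value lay in a transcript annotated as a target of nonsense-mediated decay.

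Wars, the tryptophan enzyme, had 10.68, 8.28 and 11.08 TPM, below Aars, the alanine enzyme, at 12.56, 9.22 and 11.93 TPM in each library, although their ranges overlapped. Lars, the leucine enzyme, had 8.04, 7.48 and 9.76 TPM. The lowest cytosolic enzyme was Tarsl2, a paralog of the threonine enzyme Tars, at 1.82, 1.27 and 1.42 TPM, below Tars at 6.10, 4.29 and 5.10 TPM with no overlap.

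By gene TPM, enzymes of the multisynthetase complex were somewhat higher than the other cytosolic enzymes. The 8 complex enzymes (Eprs, Iars, Lars, Mars, Qars, Rars, Kars and Dars) had a median of 16.4, 11.7 and 14.9 TPM, against 10.7, 8.28 and 11.1 TPM for the 13 others. On the log2(TPM + 1) scale the difference in medians was 0.57, 0.45 and 0.40, with a mean of 0.47 ± 0.09 (SD over 3 libraries). Members of the complex still differed widely among themselves, from Qars at 25.4 ± 5.77 TPM to Mars, the methionine enzyme, at 5.83 ± 0.52 TPM. For Qars, 22.9%, 27.8% and 45.9% of the TPM in libraries 1, 2 and 3 lay in transcripts annotated as protein coding. The complex difference was not computed over such transcripts alone, so it describes gene totals and not coding RNA. Among the scaffold proteins, Aimp1 had 11.08, 8.88 and 13.63 TPM, Eef1e1 had 3.63, 2.32 and 3.17 TPM, and Aimp2 had 2.63, 1.59 and 2.28 TPM. Aimp1 was above the other scaffolds in each library, whereas the ranges of Eef1e1 and Aimp2 overlapped, with Eef1e1 the higher in every library.

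Synthetases fall into a pair of structurally unrelated classes by the fold of their catalytic domain. Among cytosolic members, the 12 of class II had a median of 16.4, 11.2 and 14.0 TPM and the 10 of class I had a median of 8.39, 7.38 and 8.88 TPM, with Eprs counted in both. Class II was the higher in each library.

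Mitochondrial enzymes were lower than cytosolic enzymes as a set. The 17 mitochondrial enzymes had a median of 1.91, 1.89 and 2.20 TPM, against 12.6, 9.22 and 11.9 TPM for the 21 cytosolic ones. The difference in median log2(TPM + 1) was 2.22, 1.82 and 2.01, with a mean of 2.02 ± 0.20 (SD over 3 libraries), or 4.05-fold on that scale. With 3 libraries the smallest two-sided p of an exact sign-flip permutation test is 0.25, so no test is given. The value depended on the processing. It was 1.29 among members at 1 TPM or more. In the second quantification, a separately made set of transcript tables summed by gene, it was 1.52. Values there were lower in general, and the pseudocount of 1 was the same. Differences between low values shrink more under a fixed pseudocount, so 1.52 does not show a smaller gap than 2.02.

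Of the mitochondrial set, 11 of 17 were at or above 1 TPM in all 3 libraries. Iars2, the mitochondrial isoleucine enzyme, had 9.19, 6.00 and 8.01 TPM and Fars2, the single-chain phenylalanine enzyme, had 7.14, 6.92 and 8.65 TPM. These led the set and overlapped each other. Ears2, the glutamate enzyme, had 0.63, 0.69 and 0.84 TPM, and Pars2, the proline enzyme, had 0.28, 0.36 and 0.35 TPM from 24, 35 and 40 expected counts. Mars2, the methionine enzyme, had 0.17, 0.16 and 0.17 TPM from 80, 112 and 96 expected counts. Ears2, Pars2 and Mars2 were under 1 TPM in every library, and Wars2, Nars2 and Aars2 were under it in some. Mars2 has 1 annotated transcript, as long as the gene's span of 11294 bp, so its rank by TPM was 40 and its rank by CPM 38.

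Mitochondria of animals make glutaminyl-tRNA indirectly: Ears2 first loads glutamate, and an amidotransferase of Qrsl1, Gatb and Gatc converts it. Gatc had 8.42, 4.46 and 7.21 TPM, Gatb had 2.78, 1.84 and 2.74 TPM and Qrsl1, the catalytic subunit, had 1.28, 0.91 and 1.80 TPM. Each of these was above Ears2 in the same library.

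For 17 amino acids a cytosolic and a mitochondrial enzyme could be set side by side, and for 14 of them the cytosolic enzyme had the higher TPM in each library. These amino acids gave 18 gene pairs, since Eprs was set against Ears2 and Pars2, and Farsa and Farsb against Fars2. In 15 pairs the cytosolic gene was higher in all 3 libraries, and in 14 the mean ratio was above 2-fold. The widest was Eprs over Pars2, 43.2-fold by TPM, with log2 ratios of 5.80, 5.09 and 5.42. Nars over Nars2 was 36.2-fold, with log2 ratios of 5.09, 4.86 and 5.58. Mars over Mars2 was 34.9-fold by TPM and 6.40-fold by CPM, which does not correct for the long Mars2 transcript.

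The exceptions were isoleucine, threonine and phenylalanine. Iars2 exceeded Iars, the cytosolic isoleucine enzyme at 6.63, 4.66 and 6.37 TPM, with log2 ratios of cytosolic over mitochondrial of -0.47, -0.36 and -0.33 and a mean of -0.39 ± 0.07 (SD, n = 3). This was the single pair with the mitochondrial gene higher in each library, and by CPM the ratio was 0.659. Tars and Tars2 had log2 ratios of TPM of 0.19, 0.01 and -0.16, within their spread of 0. By CPM, which does not correct for transcript length, Tars was 1.78-fold higher. Farsa and Fars2 had log2 ratios of TPM of 0.35, -0.06 and 0.00, but Farsa was 1.91-fold higher over coding transcripts alone. It was 1.86-fold higher by CPM, again without length correction. By TPM, Farsb exceeded Fars2 by 2.27-fold.

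Both values of the isoleucine pair carry an uncertainty from shared sequence. Of the 31-base words in the most abundant Iars2 transcript, 36.8% also occur on the opposite strand in transcripts of Rab3gap2, a gene at 23.8 TPM. Whether strand was used in the counting is not given in the sources used here, so reads of these overlapping genes cannot be told apart. The same holds for Aimp2, which shares 39.7% of its main transcript with Eif2ak1 on the opposite strand, and for Cars2, which shares 19.7% with Naxd, a gene at 8.56 TPM, on the opposite strand. Iars shares 17.7% of its main transcript with the pseudogene Gm4849 on the same strand, listed at 0.01 TPM, and Aars shares 22.7% with Exosc6 on the same strand, listed at 0.

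**Figure D2:**
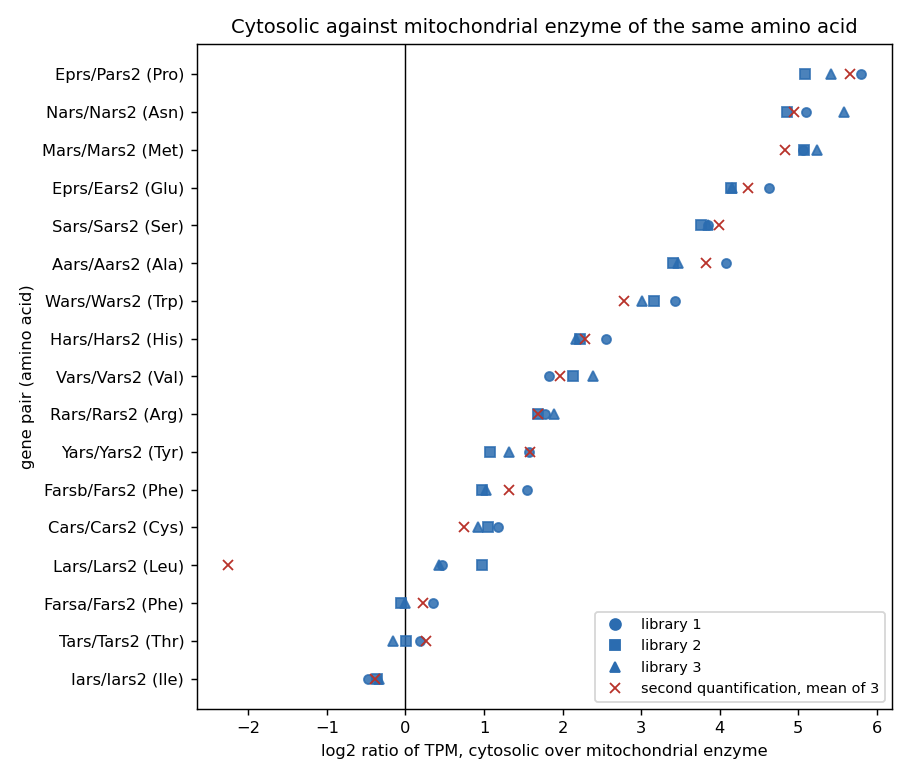
Log2 ratio of TPM, cytosolic over mitochondrial enzyme, for 17 of the gene pairs with their amino acid; the 3 blue marker shapes are the libraries, the red cross is the mean ratio in the second quantification, and the line at 0 marks equal levels. Ratios run from 5.43 for Eprs/Pars2 to -0.39 for Iars/Iars2, and Lars/Lars2 is the pair whose cross lies on the other side of 0.

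Kars and Gars have no mitochondrial partner gene. Kars (chr8:111993443-112011323, minus strand) makes its mitochondrial enzyme from a transcript with an additional exon, Kars-202, whose coding sequence of 1872 bases exceeds the 1785 bases of Kars-201. The coding part of that exon is shown because it is what separates the forms (chr8:112008207-112008352, mm10, minus strand, from the GENCODE M21 transcript), with the start codon in capitals.
Kars-202 exon 2: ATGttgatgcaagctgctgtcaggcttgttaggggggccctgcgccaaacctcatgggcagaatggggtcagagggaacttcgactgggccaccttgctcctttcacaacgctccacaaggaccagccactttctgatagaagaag
Kars-201 had 14.3, 9.53 and 11.8 TPM, which was 83.1%, 86.2% and 79.9% of the gene. Kars-202 had 13.7%, 8.68% and 16.9%, a mean of 13.1% ± 4.13 (SD, n = 3), and 14.1% ± 5.95 in the second quantification. For Gars all TPM lay in 1 transcript, Gars-201, so its cytosolic and mitochondrial forms could not be told apart. Leaving out Gars and Kars gave a cytosolic-mitochondrial difference of 1.87.

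Most members were measured mainly in transcripts annotated as protein coding. This class held more than 90% of the TPM in 27 members and less than 60% in 4, among them Qars, Cars2 and Fars2. The mean protein-coding share was 90.1% ± 1.94 (SD, n = 3) over cytosolic enzymes and 83.4% ± 1.20 over mitochondrial enzymes, against 90.1% ± 0.467 over the 9124 detected protein-coding genes with such a transcript.

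Qars, the glutamine enzyme of the complex (chr9:108507706-108515941, plus strand), differed most from this pattern among cytosolic members. Of its TPM, 71.8%, 55.9% and 49.8% lay in transcripts annotated as targets of nonsense-mediated decay, the pathway that degrades mRNAs with an early stop codon. A single such transcript, Qars-231, had 15.3, 8.21 and 13.5 TPM, a share of 48.2% ± 8.64 (SD, n = 3) in the first quantification and 51.7% ± 5.16 in the second. The most abundant transcript of the protein-coding class, Qars-203, had 4.10, 4.28 and 6.39 TPM, below Qars-231 in each library. In Qars-231 exon 2 ends 49 bases before its end in Qars-203, a length that is not a multiple of 3. The missing coding bases (chr9:108508482-108508530) and the annotated stop codon of Qars-231 (capitals; chr9:108508949-108508975, both mm10, plus strand, from GENCODE M21 transcripts) are shown because they are what sets the decay form apart.
Qars-203 exon 2 end: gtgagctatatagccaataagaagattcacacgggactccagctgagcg
Qars-231 stop codon: tcggtgtggtggTGAcaccggagcaga
Qars-231 is the single annotated transcript with the shorter exon 2, while 12 annotated transcripts end that exon at the later site, with 32.8% ± 10.2 of the TPM. Qars-231 also holds a 72-base exon that Qars-203 lacks. These shares were estimated by the authors from short reads among 34 annotated transcripts, and reads across the exon 2 junctions were not analysed here.

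Other members with large shares outside the protein-coding class were spread over both sets. Cars, the cysteine enzyme, had 29.4%, 35.8% and 30.0% of its TPM in decay-annotated transcripts, but 16.1% ± 9.35 in the second quantification. Farsb had 37.9%, 15.0% and 15.1%, so its decay share was high in library 1 only. Cars2 had 44.4% ± 4.78 and Fars2 45.5% ± 5.46 in processed transcripts, which have no annotated reading frame.

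Retained-intron transcripts took a small share of the family as a whole. Over the 37 members with such a transcript, their mean share was 5.18%, 4.15% and 3.18% of TPM, with a mean of 4.17% ± 0.998 (SD, n = 3). Over 5781 detected protein-coding genes with one, it was 6.05% ± 0.523. In the second quantification the order was the other way, 7.89% ± 1.41 for the members and 7.06% ± 0.955 for all, so no difference from other genes is drawn from it.

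**Figure D3:**
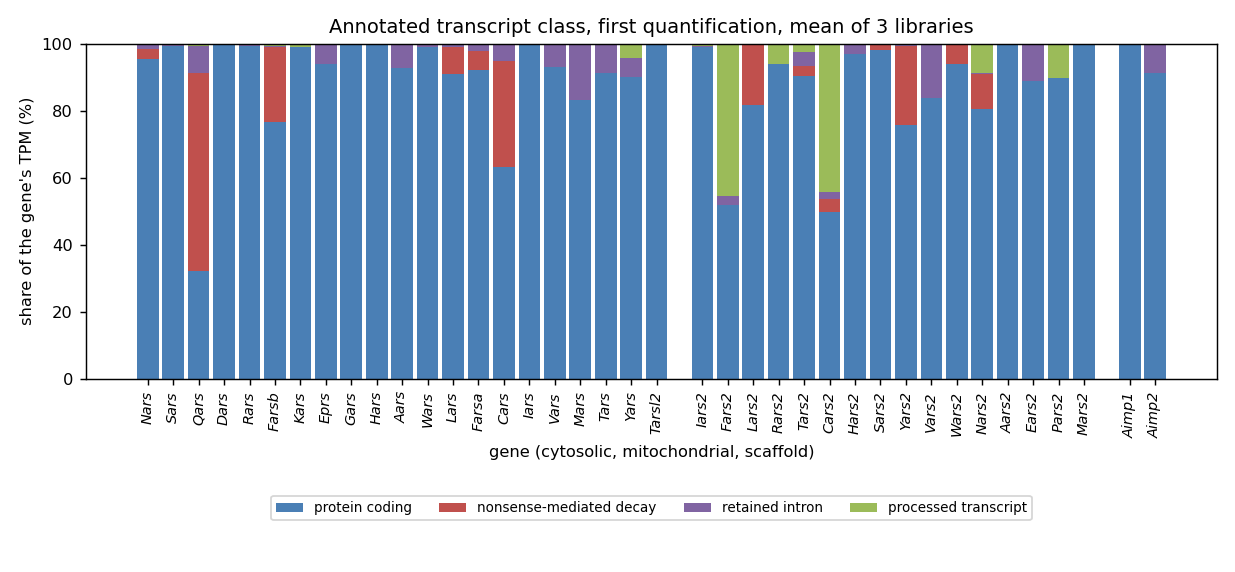
Share of TPM by annotated transcript class in the first quantification for 39 members, mean of 3 libraries; bars are ordered by set (cytosolic, mitochondrial, scaffold) and within a set by mean TPM. Qars stands out among cytosolic members with 59.2% in the nonsense-mediated decay class, and Fars2 and Cars2 among mitochondrial members with 51.9% or less in the protein-coding class.

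Lars2, the mitochondrial leucine enzyme (chr9:123366927-123462666, plus strand), was the member on which the quantifications differed most. It had 5.80, 3.81 and 7.27 TPM in the first and 15.7, 9.91 and 15.4 TPM in the second. Second values were lower than first values for detected genes in general, with a median log2 difference of -1.13, -1.43 and -2.13 in libraries 1, 2 and 3. Relative to that shift, Lars2 was higher in the second by 2.86 ± 0.33 (log2, SD over 3 libraries), while the other 39 members lay between -0.29 and 0.42. Lars over Lars2, the leucine pair, was 1.54-fold in the first and 0.21-fold in the second.

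The transcripts behind Lars2 also differed. In the first quantification the main coding transcript held 93.3%, 93.9% and 55.3% of the TPM, and Lars2-205, a retained-intron transcript of 4 exons, was listed at 0. In the second, Lars2-205 held 15.8%, 48.7% and 60.7% and Lars2-209, annotated for nonsense-mediated decay, 65.7%, 27.1% and 31.4%. None of the 859 31-base words of Lars2-205 occurs in an annotated transcript of another gene. Inexact matches and sequence outside the annotated transcripts were not searched. What made the quantifications differ was not tested.

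**Figure D4:**
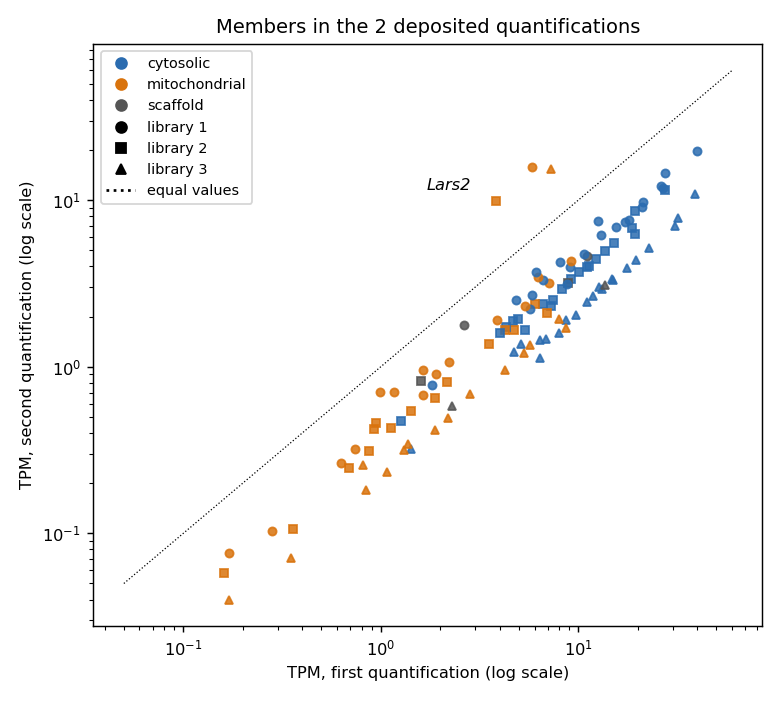
TPM of 39 members in the first (x) and second (y) deposited quantification, both axes log; colour marks the set, marker shape the library, and the dotted line equal values. All members except Lars2 lie below the line, and the 3 Lars2 points lie above it, at 9.91 to 15.7 TPM on the y axis.

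Between the 3 libraries no member passed the test for variation. With edgeR's goodness-of-fit test over 12231 genes, 203 genes (1.66%) were called at an adjusted p under 0.05, and 0 of 40 members. The dispersion trend was estimated from these same libraries. A call therefore means more spread than is usual for genes of similar abundance, and the lack of calls does not show that members were stable. At an unadjusted p under 0.05 there were 785 genes and again 0 members. Lars2 had the smallest p of the members, with log2 CPM of 4.73, 4.62 and 5.13, an edgeR p of 0.0651 and an adjusted p of 0.89. It was highest in library 3, and without library 1 its unadjusted edgeR p was 0.00935 with an adjusted p of 0.392. The other 39 members had an edgeR adjusted p of 0.99997.

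The members nevertheless were not spread evenly over the libraries. On the scaled log2 CPM values, 23 of 40 members were lowest in library 1, among them 12 of 17 mitochondrial enzymes and 10 of 21 cytosolic ones, against 38.3% of all genes tested. Genes of a library are not independent of one another, and this count was not tested. Aars2, the mitochondrial alanine enzyme, had log2 CPM of 1.57, 2.28 and 2.18, from 98, 173 and 168 expected counts, and Yars2, the tyrosine enzyme, had 1.47, 2.00 and 1.82. Both were lowest in library 1. The median deviation of the members from their own mean was -0.066, 0.033 and 0.012 (log2) in libraries 1, 2 and 3, against -0.0036, 0.0026 and 0.0035 over all genes tested. Mitochondrial enzymes ranged more between libraries than cytosolic ones, with a median range of 0.34 against 0.14, and they also had fewer reads, with a median of 6.99 against 36.8 CPM.

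**Figure D5:**
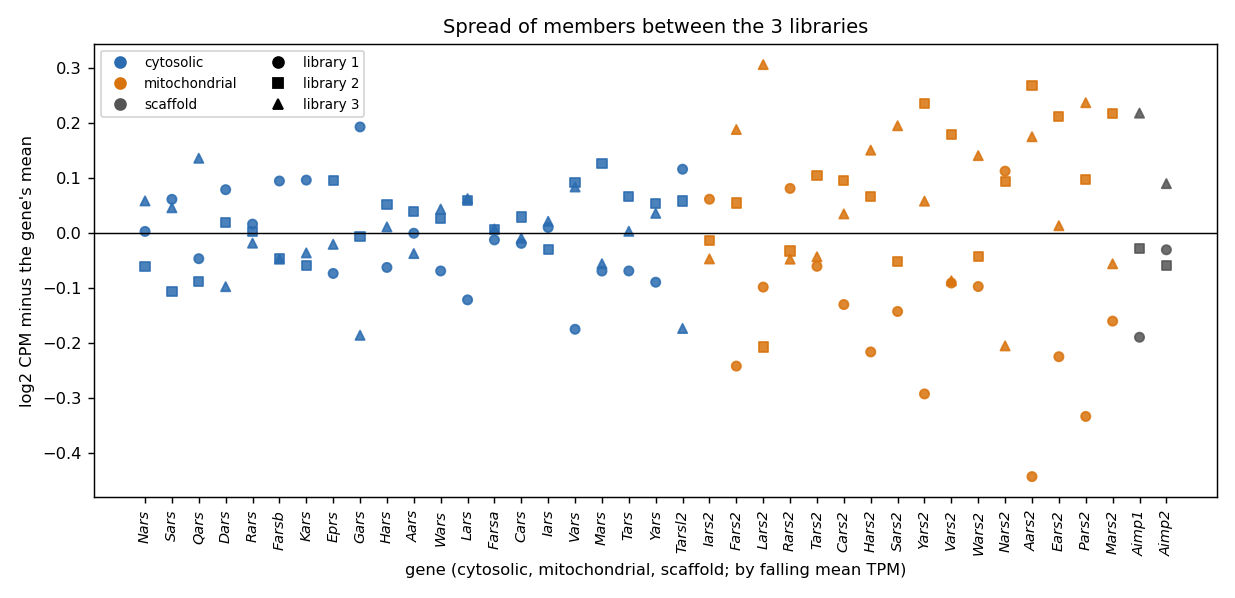
Log2 CPM of 39 members in each library minus the gene's mean, with cytosolic, mitochondrial and scaffold members from left to right, each by falling mean TPM; marker shape is the library. Cytosolic enzymes keep close to 0, with Gars the widest at 5.64, 5.44 and 5.26 log2 CPM, and library 1 is the lowest point for 23 of 40 members.

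Several members have promoters that contain the composite element bound by ATF4, the transcription factor that activates synthetase genes when amino acids are short. RefSeq promoter windows (GRCm38.p6, 250 bases before to 50 after the start site) were found for 30 of 40 members, 14 of them cytosolic and 14 mitochondrial. The motif TGATGNAAN was searched on both strands. It occurred in windows of 5 of the 14 cytosolic members (Aars, Gars, Iars, Tars and Yars) and of 0 of the 14 mitochondrial members. Over all 32817 windows it was in 3.96%. Member counts here and below are by gene, and Aars2 and Aimp1 had 2 windows each, whereas the shares of all windows are by window. One match in each gene is shown on the strand that carries the motif, with the motif in capitals and 10 bases on either side, because these sites share a core that none of the mitochondrial windows had. They are Aars (chr8:111033840-111033868, minus), Gars (chr6:55037960-55037988, minus), Iars (chr13:49682126-49682154, minus), Tars (chr15:11399656-11399684, plus) and Yars (chr4:129189896-129189924, plus).
Aars: cagagcgctcTGATGAAAAgtgacccgct
Gars: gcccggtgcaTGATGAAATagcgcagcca
Iars: cgtctggaggTGATGCAATactgacagtg
Tars: gctaaccagcTGATGCAACgggactcctg
Yars: cgagctcagcTGATGCAACccgacgggac
Counted from the start site in the gene's direction, these begin at positions 9 in Aars, -31 in Gars, 7 in Iars, -16 in Tars and 4 in Yars. Aars had another match, not shown, that begins at -113. Among cytosolic members with a window, the genes with the motif were not the highest. Their median was 5.89 TPM (4.52 to 14.2), against 14.4 TPM (1.50 to 26.2) for the 9 with a window and no match. Nars, the highest cytosolic member, had no window and was not searched. A match is a description of these letters, and binding was not measured.

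A different short motif occurred for a minority of the mitochondrial members. GCCGCCAT, the core letters of a YY1-type element, searched on both strands, occurred in windows of 3 of the 14 mitochondrial members and 0 of the 14 cytosolic ones. It was in 2.24% of all windows. Each match lay just after the start site, on the strand opposite to the gene, beginning at position 24 in Lars2 (chr9:123366940-123366967, minus), 29 in Tars2 (chr3:95754932-95754959, plus) and 20 in Yars2 (chr16:16302974-16303001, minus), and the 3 are shown for that shared placement, motif in capitals.
Lars2: cactctgggcGCCGCCATgttggcaaaa
Tars2: ggataacataGCCGCCATtccggccggg
Yars2: cagcatgggcGCCGCCATcttgcgggac
Of the other motifs searched on both strands, the ETS-family core CCGGAAG occurred in windows of 11 of 30 members, against 8.86% of all windows. The GC box GGGCGG occurred for 21 of 30 members, against 35.6% of all windows. The E-box CACGTG occurred in 5 of 30 against 7.15%, and it was in the same windows as the ATF4 element for Aars, Iars and Tars. The cyclic AMP response element TGACGTCA occurred in 0 of 30 against 1.79%. The motifs CACGTG and TGACGTCA read the same on both strands, and overlaps between motifs were not removed.

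Many members start next to a gene on the other strand. Within 1000 bp of the start site, 12 of 40 members (30.0%) had the start of a divergent protein-coding gene on the opposite strand. The share was 10.8% of all 22028 protein-coding genes, which include genes not detected here. Aimp1, Ears2, Fars2 and Wars overlap the neighbour at their starts. Rars2, the mitochondrial arginine enzyme, starts 13 bp from Orc3, Yars 33 bp from S100pbp and Kars 75 bp from Terf2ip. Sars2 starts 172 bp from Mrps12, a mitochondrial ribosomal protein gene at 16.9 ± 1.80 TPM, above Sars2 at 1.84 ± 0.39 TPM. The histidine enzymes Hars and Hars2 are each other's neighbour, overlap at their starts and both count among the 12. Hars exceeded Hars2 by 4.97-fold, with 13.08, 10.04 and 12.74 TPM against 2.22, 2.16 and 2.84 TPM. The main transcripts of this pair share 165 of their 31-base words on opposite strands, 8.42% of those of Hars.

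Genes that act before and after charging were detected with the family. All 9 genes of tRNA maturation and export were at or above 1 TPM in all 3 libraries, led by the ligase Rtcb at 18.1 ± 3.08 TPM (SD, n = 3), the splicing endonuclease subunit Tsen34 at 8.71 ± 1.17 TPM and the exporter Xpot at 8.52 ± 0.875 TPM. The 6 elongation factor genes that deliver charged tRNA to the ribosome or recharge the carriers with GTP were all detected, led by the cytosolic carrier Eef1a1 at 3304, 1640 and 2316 TPM, with the exchange factor subunits Eef1b2 at 137 ± 24.1 TPM and Eef1g at 88.0 ± 14.1 TPM. The mitochondrial carrier Tufm was at 12.4 ± 1.71 TPM. All 4 genes that clear mischarged tRNA in trans were detected, with Prorsd1 at 7.74 ± 1.30, Aarsd1 at 3.69 ± 0.569 and Dtd2 at 2.59 ± 0.0781 TPM. None of these 19 genes was called in the edgeR test, against 1.66% of all genes tested.

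RNAs of genes listed around the sensing of uncharged tRNA and of its ATF4 program were detected in part. The 4 genes listed around sensing, not all of them sensors, were at 1 TPM or more in each library. They were Impact at 26.7 ± 5.55, Eif2s1 at 15.1 ± 3.39, Gcn1l1 at 6.55 ± 0.831 and the kinase Eif2ak4 (GCN2) at 3.67 ± 0.461 TPM. Of 21 genes of the ATF4 program, 13 were at or above 1 TPM in all 3 libraries and 7 were under 1 TPM in each. Their median was 1.79 TPM, so the genes named next are not typical of the list. The highest were Slc3a2, a subunit of amino acid transporters, at 185.90, 142.69 and 134.22 TPM, Atf4 at 50.61, 38.90 and 50.18 TPM and Ddit3 at 29.97, 29.69 and 38.52 TPM. None of the 17 program genes tested was called by edgeR, against 1.66% of all genes tested. In each library Atf4 had a higher TPM than any synthetase.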

How the data were processed

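Ribosomal RNA-depleted total RNA of the cytosolic fraction was sequenced from 3 libraries of 1 group. Per the labels and the deposited notes, the authors made expected counts (estimated reads) and TPM values against mm10 with GENCODE M21, in a gene and a transcript table from transcriptome alignments (the first quantification) and in a transcript table made directly from reads (the second). Tools, versions and strand setting were not given in the sources used here. Of 81881 listed rows, 26345 without a gene record in the annotation were left out.

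Expected counts were rounded and fitted with edgeR 4.0.16 (R 4.3.3): filterByExpr, TMM, trended dispersion, intercept only, a chi-square goodness of fit of each gene's deviance and Benjamini-Hochberg adjustment over 12231 genes, tested on simulated data. Log2 CPM used a prior count of 0.5, and log2 TPM a pseudocount of 1. Group differences have no test. Depth was 33044910 to 36769402 counts. Members are named (1 is not reported here), with Eef1e1, the amidotransferase genes and the 3 highest of each other list. The members and lists were chosen with earlier results of these data known. Words of 31 bases shared between genes were counted in GENCODE M21 transcripts, and promoter sequences are from RefSeq (GRCm38.p6). Scaling, filter, dispersion, quantification, unit, pseudocount and left-out libraries were the alternatives, and counting only protein-coding transcripts was added after seeing the data.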

Additional observations from a re-analysis of the deposited data

How the results depend on the processing

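Under every alternative tried, 0 of 40 members were called as varying between libraries by edgeR. This held with TMM, RLE or no scaling factors, no filter, a common dispersion, or any 1 library left out. The smallest edgeR adjusted p ranged from 0.392 to 0.99984. Calls were rare among all genes too, from 89 of 12419 without replicate 3 to 298 of 12231 with a common dispersion. At such shares, 0 of 40 does not set the members apart. At an unadjusted p under 0.05 there was 1 member, Lars2, with library totals alone (0.0437) and without replicate 1 (0.00935). The cytosolic-mitochondrial difference of 2.02 stayed above 0 throughout. It was 2.29 with CPM, 2.42 with a pseudocount of 0.1 and 1.29 among members at 1 TPM or more. With a library left out it was 1.92 to 2.12. In the second quantification it was 1.52, with the pseudocount of 1 added to lower values, so this does not show a smaller gap. The complex difference was 0.42 to 0.51 with a library left out, and it was not computed for protein-coding transcripts alone. The leucine pair reversed, from a log2 ratio of 0.62 to -2.25 in the second quantification, and the cause was not tested. At a minimum of 5 TPM, 19 members were detected, and in the second quantification 26 at 1 TPM. The retained-intron share was 7.89% in the second quantification and 3.67% to 4.67% with a library left out. For the amino acid pairs, 15 of 17 were higher in the cytosolic set by the second quantification and 15 by coding transcripts. By CPM, which does not correct for length, 16 were. No paired analysis was possible because there is 1 group. The members under 1 TPM in every library, Ears2, Pars2 and Mars2, had 24 to 112 expected counts. Wars2, Nars2 and Aars2, under it in some libraries, had 98 to 233. A count of 0, which no member had, allows up to 0.0908 CPM (3 counts). Intervals and floors cover counting error only.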
